A study of Mus musculus with 8 samples.

Results

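The glucocorticoid response genes described here are the glucocorticoid receptor gene Nr3c1 and 9 genes that glucocorticoid hormone is known to induce: Fkbp5, Tsc22d3, Sgk1, Zbtb16, Klf9, Errfi1, Cdkn1a, Pdk4 and Ddit4. They were found by gene name among the noncontrol spots of the arrays, and they are 10 of the 34797 gene names there. All 10 were on the array, with 13 probes on 22 spots. Of these probes, 11 passed the filter (a GenBank or RefSeq accession, signal well above background on every array and no outlier flag), so that each of the 10 genes had at least 1 usable probe. The measurements come from the olfactory bulb of 56-day-old male C57BL/6J mice. C-C mice lived in standard cages and breathed clean air, and C-DE mice lived in standard cages and inhaled diesel exhaust (DE). EE-C and EE-DE mice lived with environmental enrichment, a larger cage with a running wheel, a small house, blocks and tubing, in clean air or in DE. The housing began before birth, was kept through weaning at postnatal day 27, and went on during the exposure. The DE concentration was 90 µg/m3, inhaled daily for 8 h during 28 days (postnatal days 28 to 55), and the bulbs were taken 1 day after the last exposure. According to the methods, the RNA of all mice of a group was combined (7 mice in C-C and in C-DE, 8 in EE-C, 9 in EE-DE) and the mixture was split over 2 arrays. With 1 pool for a group, mice cannot be compared with mice, and neither housing nor exposure could be tested. The exposure was read in standard cages (C-DE over C-C) and with enrichment (EE-DE over EE-C), the housing in clean air (EE-C over C-C) and under DE (EE-DE over C-DE), and both together as EE-DE over C-C.

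Glucocorticoids, corticosterone in mice, are the adrenal hormones of the stress response and follow a daily rhythm. The hormone binds the receptor encoded by Nr3c1, which is held ready in the cytoplasm by heat shock protein chaperones, and the bound receptor enters the nucleus and attaches to glucocorticoid response elements, pairs of half-sites in mirrored order. In the brain its targets lie in neurons, glia and vessels, and several of them, Fkbp5 first among them, feed back on the receptor itself.

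The response element could be looked for in the RefSeq promoter windows (assembly GRCm38.p6), which run from 250 bases before to 50 bases after a transcription start. The table held 17 windows for 8 of the 10 genes. The full element was searched as AGAACA and TGTTCT separated by 3 bases. It reads the same on both strands and contains both half-sites. Among 32851 windows of the table, 3 held this element without a mismatch, and 1 of them was a window of Sgk1. With up to 2 mismatches over the 12 half-site bases, 606 windows (1.84%) held it, and among those of the 10 genes there were 2, both of Sgk1. An exact half-site on either strand was in 4 of the 17 windows, against 18.97% of all windows. The E-box CACGTG was in 2 of the 17 windows, 1 of Fkbp5 and 1 of Sgk1, against 7.15% of all windows. The stretches below are those with the full element and the half-site of Tsc22d3. Capitals mark the element or the half-site. The first stretch is the 250 bases before a start of Sgk1 (chr10:21993640-21993889, plus strand), whose element begins 189 bases before the start. The next lies before another start of Sgk1 (chr10:21985899-21985958, plus strand) and has 2 mismatches. The last belongs to Tsc22d3 (chrX:140600675-140600734, minus strand).
Sgk1, element without mismatch: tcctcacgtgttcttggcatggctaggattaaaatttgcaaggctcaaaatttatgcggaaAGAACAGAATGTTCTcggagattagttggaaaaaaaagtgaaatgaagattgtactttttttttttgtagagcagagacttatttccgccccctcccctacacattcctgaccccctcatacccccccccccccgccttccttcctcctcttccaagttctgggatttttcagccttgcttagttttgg
Sgk1, element with mismatches: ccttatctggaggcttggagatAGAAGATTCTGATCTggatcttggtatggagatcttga
Tsc22d3, half-site: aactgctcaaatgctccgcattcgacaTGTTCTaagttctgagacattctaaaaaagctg
A match of these letters is a description of the window and not a site of binding, and receptor binding was not measured here.

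Signal on the arrays was close in strength, with a 75th percentile of 644 to 716 intensity units. The first EE-DE array had 56.7% of noncontrol spots well above background, and the other 7 had 68.0% to 70.6%. All 8 arrays shared 1 slide, on which each housing had its own column, and housing and slide column cannot be told apart. Markers of bulb neurons, astrocytes, oligodendrocytes, endothelium and microglia were all measured on every array (30 of 30 genes), and none of them differed 1.5-fold between pools or between the arrays of a pool. Markers of olfactory mucosa, the tissue next to the bulb, stood apart. All 8 were detected on every array, none was at 0, and 7 of them were at least 1.5-fold lower for DE in standard cages (0.433% of all probes), while 6 were at least 1.5-fold higher for DE with enrichment (0.608%). These 6 calls were all lost without the second EE-C array, and 4 of them without the second EE-DE array, and of the 8 markers Cnga4 alone did not overlap between these pools. For enrichment under DE 7 of them were at least 1.5-fold higher (0.557% of all probes), by 1.26 to 2.19, and for enrichment in clean air 2 were at least 1.5-fold lower (0.539%), Cyp2g1 and Sec14l3, which were not so without the first C-C array or without the second EE-C array. Of the 5 neutrophil markers, 4 were at least 1.5-fold lower for DE in standard cages and 4 at least 1.5-fold higher for enrichment under DE, with a median of 0.81. Of the former, Ngp overlapped between the pools and was at −0.20 without the second C-DE array, and it was also below 1.5-fold without the first C-C array and with normexp background correction, as was Ltf (−0.44) with that correction. The latter 4 were all below 1.5-fold without the first EE-DE array, and with normexp background correction Ngp was at 0.39 and Ltf at 0.42, while Ngp was at 0.15 without the second C-DE array. The mucosal markers Cyp2f2, Krt18, Ugt2a1 and Cnga4 and the neutrophil marker S100a8 were picked by the study on these same arrays. The counts of both lists are therefore not independent evidence. The 4 red blood cell markers were also higher for enrichment under DE, without overlap (21.2% of all probes), by 0.18 to 0.44. Arrays that should hold the same RNA also differed in them. Cyp2g1, a cytochrome of mucosal supporting cells, was 4.18-fold apart between the EE-C arrays, and 7 of the 8 markers were at least 1.5-fold apart there, against 2.12% of all probes (0.72% to 1.22% in the other pools). Between the C-C arrays 6 of the 8 were at least 1.5-fold apart, between the EE-DE arrays 5 and between the C-DE arrays 1. The 5 neutrophil markers were likewise all at least 1.5-fold apart between the EE-C arrays, and 4 of them between the EE-DE arrays. Summed over the list, the mucosal markers spanned 67.6 to 83.3 in C-C and 59.7 to 69.1 in C-DE, and 69.4 to 81.3 in EE-C against 77.8 to 86.9 in EE-DE, in units of each array's 75th percentile. Most of this sum is Omp, the marker of mature olfactory neurons, whose axons end in the bulb, and Omp differed by at most 0.20 between pools. The sum of the other 7 ran from 7.15 to 12.3 in C-C, 3.76 to 4.73 in C-DE, 4.43 to 11.7 in EE-C and 10.2 to 16.5 in EE-DE. The summed neutrophil markers spanned 3.86 to 4.68, 2.25 to 2.59, 2.97 to 8.81 and 3.19 to 5.32 in the same order. Whether the arrays of a pool held identical RNA was not tested.

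**Figure D1:**
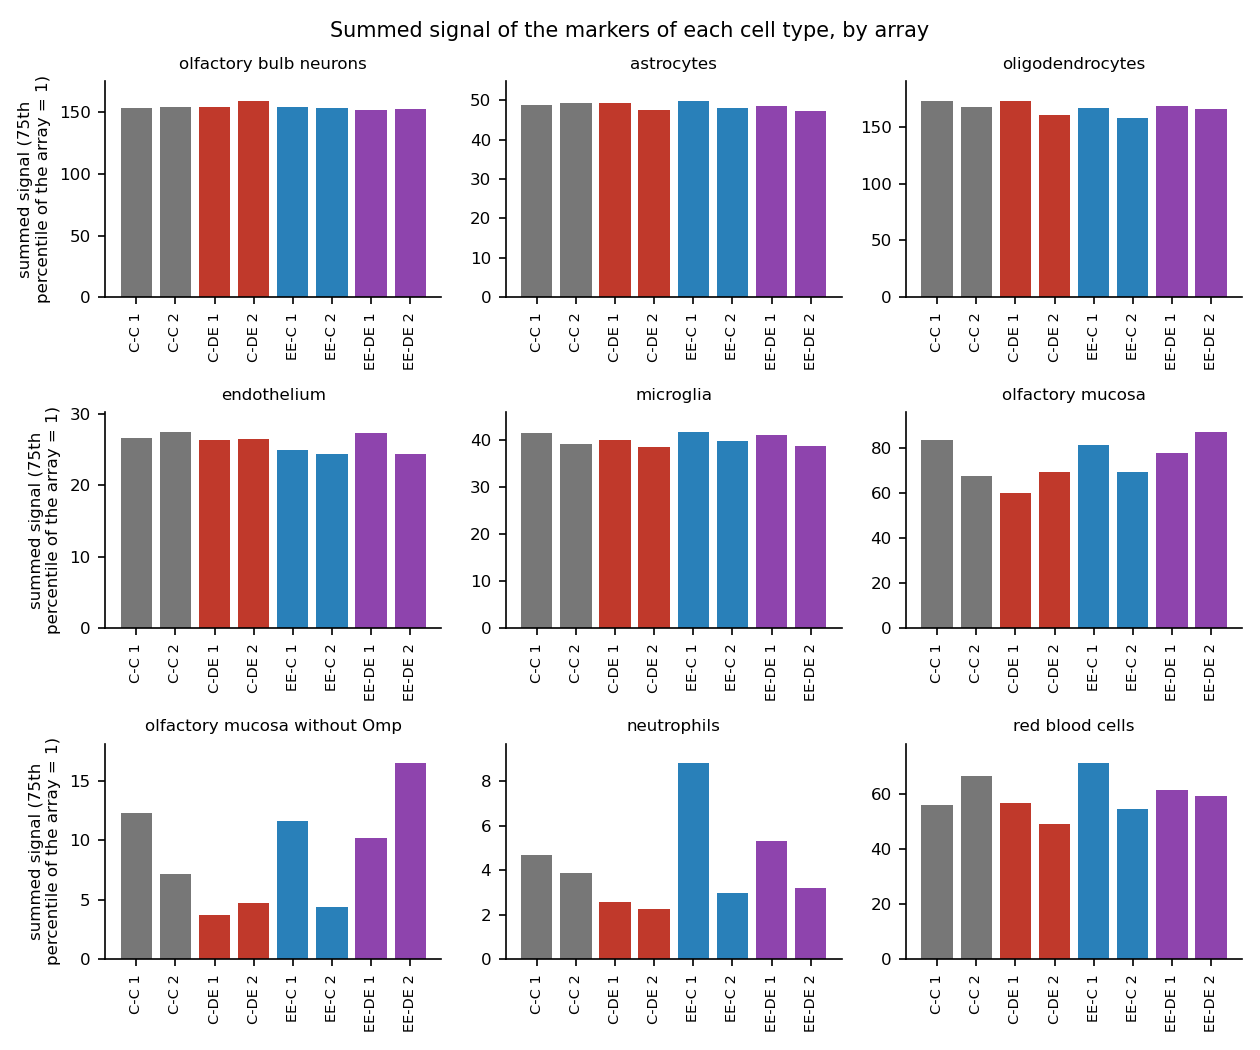
Summed signal of the markers of each cell type (y axis, in units of the 75th percentile of the array) on each of the 8 arrays (x axis, coloured by pool). The bars of bulb neurons and of brain glia are nearly level, whereas the bars of neutrophil markers run from 2.25 to 8.81 and those of olfactory mucosa without Omp from 3.76 to 16.5.

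Across all 5 comparisons of pools, the glucocorticoid response genes differed little. None of the 10 reached 1.5-fold in any. Of the 21709 passing probes, 0.576% were called at that threshold for DE in standard cages, 0.944% for DE with enrichment, 0.825% for enrichment in clean air, 0.636% for enrichment under DE and 0.815% for both together, so 0 of 10 is near the background. The median absolute log2 difference of the 10 genes was 0.06 in each comparison, against 0.06 to 0.07 over all probes. Sgk1, at 1.23-fold for enrichment in clean air, had the largest value of the 50 obtained. All levels below are log2 processed signal minus the 75th percentile of the array, the first array of a pool given before the second, and a level says nothing of how one gene's probe compares with another's. In bulk tissue, fewer cells of a type and less RNA per cell cannot be told apart.

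**Figure D2:**
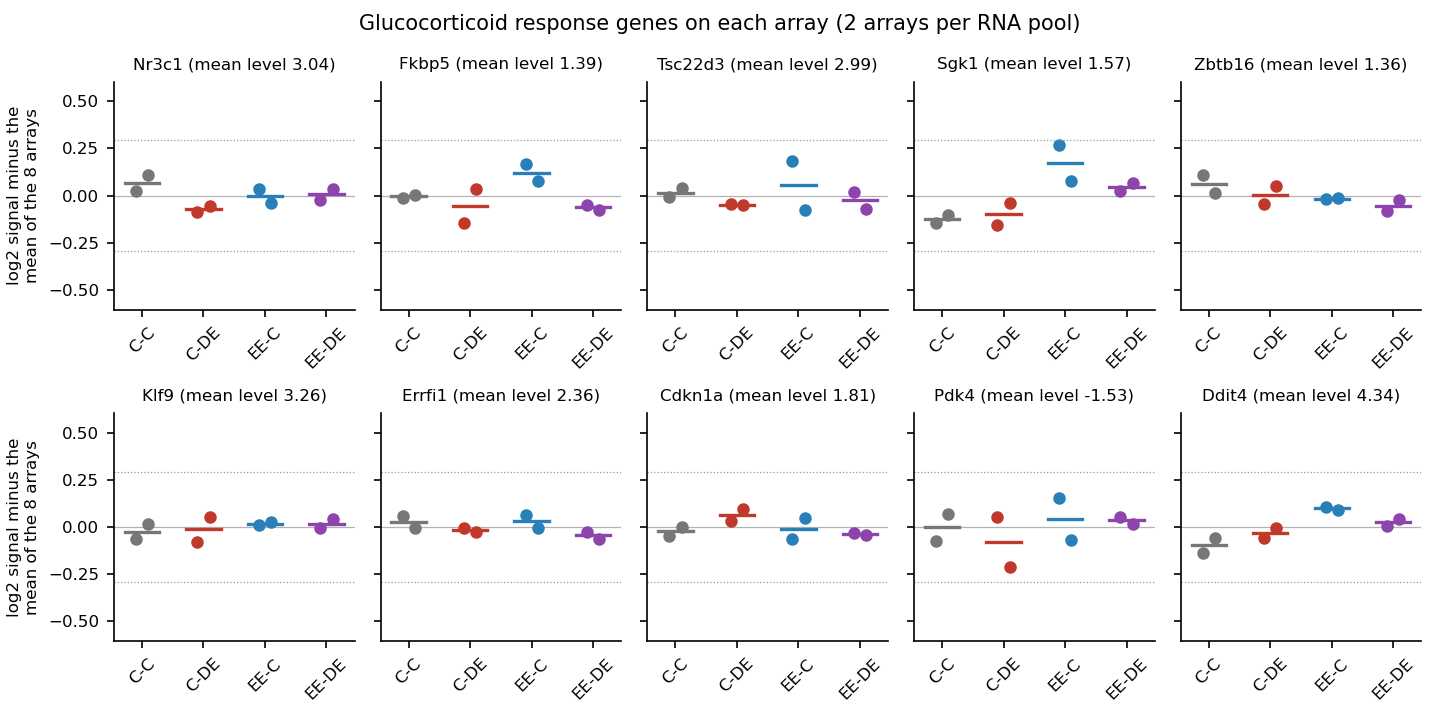
Level of each gene on the 8 arrays, as log2 signal minus its mean over the arrays (y axis), by pool (x axis). Dots are arrays, bars are pool means, and the dotted lines lie 1.5-fold apart. No gene spans that distance, and Sgk1 has the widest range of pool means (0.30), with its enriched pools above its standard-cage pools.

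The receptor was examined first. Nr3c1 encodes the glucocorticoid receptor, which is present in nearly all cells of the brain, and 2 of its probes passed. The brighter one read 3.06 and 3.15 in C-C, 2.95 and 2.99 in C-DE, 3.07 and 3.00 in EE-C, and 3.02 and 3.07 in EE-DE. Both C-DE arrays lay below all other arrays. The difference was −0.14 for DE in standard cages (−0.19 to −0.08 over the 4 ways to pair the arrays of the pools compared), or −9.00%, and 0.01 for DE with enrichment (−0.05 to 0.07). The dimmer probe of the same transcript went the other way in standard cages. It read −1.81 and −1.76 in C-C, −1.67 and −1.67 in C-DE, −1.55 and −1.74 in EE-C, and −1.59 and −1.68 in EE-DE, a difference of 0.12 for DE in standard cages (0.09 to 0.14). The probes thus disagreed in sign for DE in standard cages, and with their mean the difference was −0.01.

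Of 18 further genes that deliver or modulate the hormone signal, 17 were measured and none reached 1.5-fold in any comparison. Hsd11b2, which inactivates the hormone, had no passing probe. Their median was 0.08 for DE in standard cages, −0.002 for DE with enrichment, 0.0012 for enrichment in clean air and −0.05 for enrichment under DE. For DE in standard cages 13 of the 17 were above 0, where 47.0% of all probes were, and 7 were higher without overlap, against 18.5%. For enrichment under DE, which shares the C-DE arrays with that comparison, all 17 were below 0, whereas 50.0% of all probes were above 0, and 8 of the 17 did not overlap between the pools, against 21.0% of all probes that were lower without overlap. The sizes were small, from −0.20 for Crh to −0.01. Mucosal, neutrophil and red blood cell markers were higher in this comparison, and for DE in standard cages 7 of 8 mucosal and 4 of 5 neutrophil markers were at least 1.5-fold lower. The part of those cells in the values of this list was not tested. Crh, which encodes the releasing hormone of the stress axis and is also made by interneurons of the bulb, read 1.98 and 1.89 in C-C, 2.10 and 2.12 in C-DE, 1.89 and 1.88 in EE-C, and 1.91 and 1.91 in EE-DE. Its C-DE arrays were the highest of the 8. The difference was 0.18 for DE in standard cages and 0.03 for DE with enrichment. Nr3c2, the mineralocorticoid receptor that binds the same hormone with higher affinity, differed by 0.08 (−0.03 to 0.20) and −0.12 (−0.14 to −0.09). Pomc, the precursor of the pituitary hormone that drives the adrenal, differed by 0.16 (−0.25 to 0.56) and 0.19 (0.06 to 0.31). For DE in standard cages the arrays overlapped for both genes.

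Fkbp5 encodes a co-chaperone that lowers the affinity of the receptor for hormone, and it is among the genes that the hormone induces most widely. Its probe (NM_010220, chr17:28536060-28536119 on mm9) read 1.38 and 1.39 in C-C, 1.24 and 1.42 in C-DE, 1.56 and 1.47 in EE-C, and 1.34 and 1.31 in EE-DE. The EE-C arrays were the highest of the 8, and of the C-DE arrays one was the lowest of the 8 and the other came next below the EE-C arrays. The difference was −0.18 for DE with enrichment (−0.24 to −0.13), or −12.0%, and the farthest from 0 of the 10 genes there, and −0.05 for DE in standard cages (−0.15 to 0.05). For enrichment in clean air it was 0.13 (0.08 to 0.18), and for enrichment under DE −0.01. From high to low, the pool means stood in the order EE-C, C-C, C-DE and EE-DE, in which C-C and C-DE overlapped, as did C-DE and EE-DE.

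Sgk1 encodes a kinase that regulates ion channels and transporters, and it is also induced by mineralocorticoids. Its probe (NM_001161845, chr10:21719507-21719566) read 1.42 and 1.47 in C-C, 1.41 and 1.53 in C-DE, 1.84 and 1.64 in EE-C, and 1.59 and 1.63 in EE-DE. Every array of the enriched pools lay above every array of the standard-cage pools. For enrichment in clean air the difference was 0.30 (0.18 to 0.41), a level 22.7% higher, which falls between the 95th percentile (0.20) and the 99th percentile (0.36) of all probes. For enrichment under DE, which shares no array with that comparison, it was 0.145 (0.07 to 0.22). Of all probes, 20.2% were higher without overlap in clean air and 21.2% under DE. In both comparisons housing coincides with slide column, and these cannot be told apart. The exposure differences were 0.02 for DE in standard cages (−0.06 to 0.10) and −0.13 for DE with enrichment (−0.24 to −0.01). Without the first EE-C array, which read highest, the clean-air difference was 0.20, and without the second it was 0.39. Over all settings tried, Sgk1 stayed between 0.19 and 0.39 for enrichment in clean air and between 0.09 and 0.20 for enrichment under DE. From high to low the pools stood in the order EE-C, EE-DE, C-DE and C-C, with an overlap of arrays between C-DE and C-C alone. Between the EE-C arrays, 7 of 8 mucosal and 5 of 5 neutrophil markers were at least 1.5-fold apart, more than between the arrays of any other pool, and most of both lists were higher for enrichment under DE. The part of those cells in the Sgk1 values was not tested.

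Ddit4 encodes a brake on mTOR signalling that hypoxia and energy stress induce as well. Its probe (NM_029083, chr10:59412486-59412545) read 4.20 and 4.28 in C-C, 4.28 and 4.33 in C-DE, 4.44 and 4.43 in EE-C, and 4.34 and 4.38 in EE-DE. Again the enriched arrays lay above all standard-cage arrays, the closest of them by 0.01. The difference was 0.20 for enrichment in clean air (0.15 to 0.24), a level 14.6% higher, and 0.06 for enrichment under DE (0.01 to 0.10), and over all settings tried it stayed above 0 in both, at 0.16 to 0.24 and 0.03 to 0.08. The exposure differences had opposite signs, 0.07 for DE in standard cages (−0.0007 to 0.13) and −0.07 for DE with enrichment (−0.10 to −0.05). Of 9 measured genes that share hypoxia or energy stress control with Ddit4, none reached 1.5-fold, and their medians were 0.03 for enrichment in clean air and 0.02 for enrichment under DE. Among them Ankrd37, a target of hypoxia-inducible factor, differed by 0.09 for DE in standard cages and −0.15 for DE with enrichment. Vegfa, the angiogenic growth factor, differed by 0.03 and 0.09, and Atf4, a factor of the integrated stress response, by −0.09 and −0.04.

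Tsc22d3 encodes GILZ, a leucine zipper protein that carries part of the anti-inflammatory action of glucocorticoids. Its probe (NM_001077364, chrX:137074094-137074153) read 2.98 and 3.03 in C-C, 2.94 and 2.94 in C-DE, 3.17 and 2.91 in EE-C, and 3.01 and 2.92 in EE-DE. The EE-C arrays enclosed the values of all the others. For DE in standard cages the difference was −0.06 (−0.09 to −0.04), and in the other 4 comparisons the arrays overlapped, with differences of −0.08 to 0.04.

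Zbtb16, a zinc finger repressor that responds strongly to the hormone in many cells, was next. Its probe (NM_001033324, chr9:48462419-48462478) read 1.47 and 1.38 in C-C, 1.32 and 1.42 in C-DE, 1.35 and 1.35 in EE-C, and 1.28 and 1.34 in EE-DE. C-C was the highest pool and EE-DE the lowest. Zbtb16 was below 0 in all 5 comparisons, from −0.04 for DE with enrichment to −0.12 for both together, but with normexp background correction it was at 0.01 for enrichment in clean air. Klf9, a zinc finger factor that links glucocorticoid and thyroid hormone signals and is under clock control in other tissues, had the narrowest spread of pool means. Its probe (NM_010638, chr19:23240410-23240469) read 3.19 and 3.27 in C-C, 3.18 and 3.31 in C-DE, 3.27 and 3.28 in EE-C, and 3.25 and 3.30 in EE-DE. The pool means spanned 0.04, and the arrays overlapped in all 5 comparisons.

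Errfi1 encodes a feedback inhibitor of the EGF receptor. Its probe (NM_133753, chr4:150242886-150242945) read 2.42 and 2.35 in C-C, 2.35 and 2.33 in C-DE, 2.42 and 2.35 in EE-C, and 2.33 and 2.30 in EE-DE. The exposed pool was the lower one in both housings, without overlap, by −0.04 for DE in standard cages (−0.09 to −0.0005) and −0.07 for DE with enrichment (−0.13 to −0.02). These comparisons share no array, and the sizes are close to the widest gap between the arrays of a pool, which was 0.07. Over all settings tried, Errfi1 ran from −0.08 to −0.01 for DE in standard cages and from −0.15 to −0.04 with enrichment. Cdkn1a encodes p21, an inhibitor of the cell cycle that p53 controls as well. Its probe (NM_007669, chr17:29237377-29237436) was printed on 10 spots of each array. The mean over the spots was 1.77 and 1.81 in C-C, 1.84 and 1.91 in C-DE, 1.75 and 1.86 in EE-C, and 1.78 and 1.77 in EE-DE. The SD over the 10 spots of an array was 0.02 to 0.08. The differences between pools were 0.09 for DE in standard cages (0.03 to 0.14) and −0.03 for DE with enrichment (−0.09 to 0.03). C-DE was the highest pool, and for enrichment under DE the difference was −0.10 (−0.14 to −0.06). The other Cdkn1a probes did not pass. One of them, for a second RefSeq transcript, was well above background on the first C-DE array alone, and no fold is given for it. The other was well above background on all 8 arrays but carries an Ensembl transcript in place of a GenBank or RefSeq accession, and its differences ran from −0.03 to 0.06.

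Pdk4, a kinase that shuts off glucose oxidation in fasting and is induced through PPAR and glucocorticoid receptors, was low on the scale of the array. Its probe (NM_013743, chr6:5433441-5433500) read −1.61 and −1.46 in C-C, −1.48 and −1.75 in C-DE, −1.38 and −1.60 in EE-C, and −1.48 and −1.51 in EE-DE. The arrays overlapped in every comparison, with differences of −0.08 to 0.12. The SD between the arrays of a pool was 0.13 for Pdk4, and also 0.13 for the 2629 probes within 0.5 of its level, whereas it was 0.04 to 0.10 for the other 9 genes. Of 7 measured fasting and PPAR target genes, Cd36, a fatty acid transporter, was at least 1.5-fold higher for enrichment under DE alone, by 0.64, which was 0.55 without the second EE-DE array, 0.56 without the first C-DE array and 0.39 with normexp background correction. Ucp2, a mitochondrial carrier, differed by 0.15 for DE with enrichment (−0.04 to 0.335), with an overlap of arrays.

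**Figure D3:**
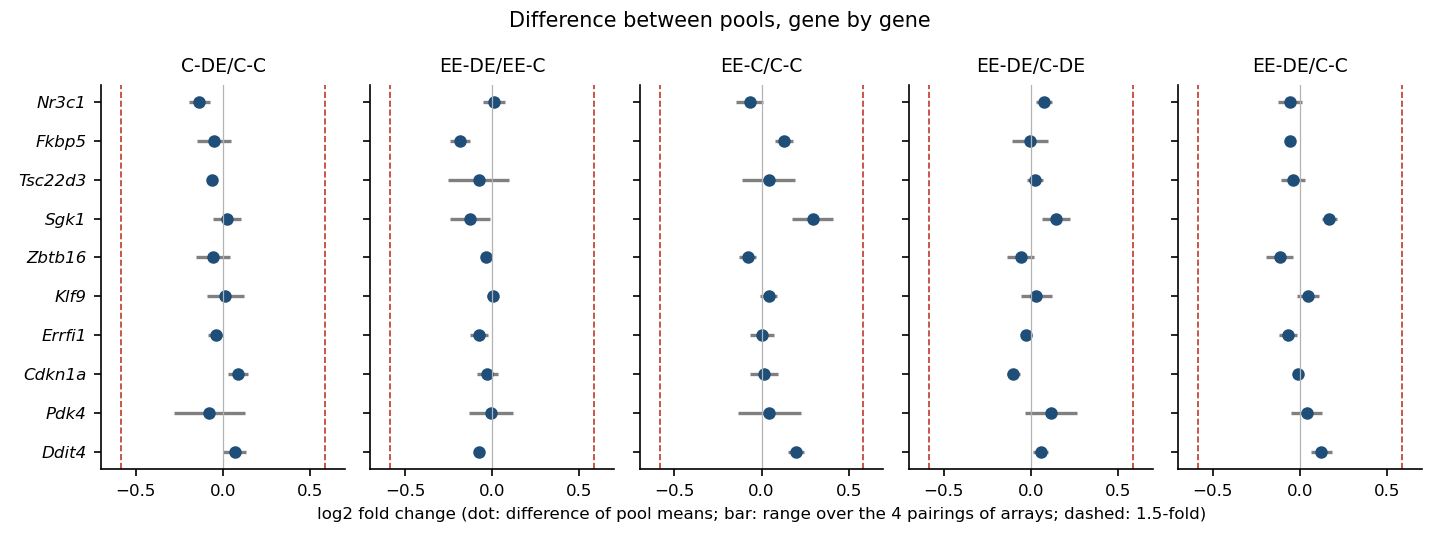
Log2 fold change (x axis) of the 10 genes (y axis) in the 5 comparisons of pools. Dots are differences of pool means, bars the range over the 4 pairings of arrays, and dashed lines mark 1.5-fold. All dots and bars stay inside the dashed lines, and the value farthest from 0 is that of Sgk1 for enrichment in clean air (0.30).

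Read by exposure, the 10 genes had a median of −0.05 for DE in standard cages and −0.06 for DE with enrichment, against −0.01 over all probes in both. The median for DE in standard cages turned to 0.014 without the first C-DE array, and was −0.0194 without the first C-C array and −0.0229 without the second. With enrichment it was −0.0345 without the first EE-C array and −0.0954 without the second. For DE in standard cages 4 were above 0 and 6 below, and for DE with enrichment 2 were above and 8 below. Arrays of the compared pools did not overlap for 4 genes for DE in standard cages, against 40.9% of all probes. Of these, Cdkn1a was higher (18.5% of all probes) and Tsc22d3, Errfi1 and Nr3c1 were lower (22.4%). For DE with enrichment they did not overlap for 5 (Fkbp5, Sgk1, Zbtb16, Errfi1 and Ddit4, all lower), against 34.2% of all probes in either direction, 14.6% in the higher and 19.6% in the lower one. The DE difference with enrichment minus that in standard cages was farthest from 0 for Sgk1 (−0.15, with a range of −0.35 to 0.05), Nr3c1 (0.145, with a range of 0.02 to 0.27) and Ddit4 (−0.14, with a range of −0.23 to −0.05). The value of Nr3c1 is that of its brighter probe, and it was −0.11 for the dimmer one and 0.02 for their mean. No gene had all pairings on one side of 0 in one housing and on the other side in the other.

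Seen by housing, the median was 0.04 for enrichment in clean air and 0.03 for enrichment under DE, against 0.01 and 0.0001 over all probes. The median in clean air was 0.0088 without the first C-C array and 0.0733 without the second, and 0.0093 without the first EE-C array and 0.0975 without the second. Under DE it was 0.0045 without the first C-DE array, 0.0523 without the second and 0.0176 without the first EE-DE array. For enrichment in clean air 8 of the genes were above 0 and 2 below, and for enrichment under DE 6 were above and 4 below. Without overlap, Fkbp5, Sgk1 and Ddit4 were higher and Zbtb16 lower for enrichment in clean air (4 of 10, against 37.7% of all probes, with 20.2% higher and 17.5% lower). Sgk1, Nr3c1 (by its brighter probe) and Ddit4 were higher and Errfi1 and Cdkn1a lower for enrichment under DE (5 of 10, against 42.2%, with 21.2% higher and 21.0% lower). For both together, which shares arrays with the other comparisons, 5 of 10 did not overlap (Sgk1 and Ddit4 higher, and Fkbp5, Zbtb16 and Errfi1 lower), against 47.1%, with 22.2% higher and 24.8% lower. With normexp background correction, Errfi1 was at 0.02 for enrichment under DE and Fkbp5 at 0.03 for both together, above 0 where they were below it otherwise. The shares of non-overlapping genes were near the background in these comparisons.

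**Figure D4:**
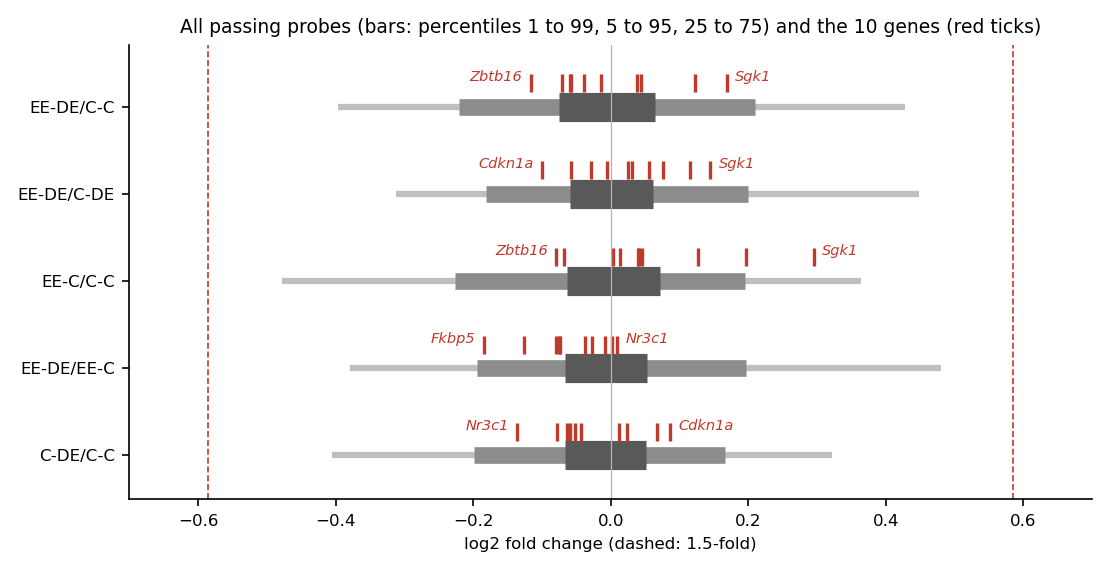
The 10 genes (red ticks) among all 21709 passing probes (grey bars, percentiles 1 to 99, 5 to 95 and 25 to 75) on the log2 fold change axis, by comparison (y axis), with the outermost genes named. For enrichment in clean air, Sgk1 (0.295) and Ddit4 (0.197) lie beyond the 95th percentile (0.196), and in every comparison all 10 genes lie inside the span of percentiles 1 to 99.

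A wider set of 26 genes that glucocorticoids induce in brain or other tissues was measured in full. The set was chosen with earlier results of these data known, and its genes are not replicates of a group. For DE in standard cages and for DE with enrichment none of the 26 reached 1.5-fold, and the medians were −0.01 and −0.04. Above 0 were 11 and 8 of the 26, against 47.0% and 46.5% of all probes. The comparison of DE with enrichment shares the EE-C arrays with that of enrichment in clean air. For enrichment in clean air the median was 0.08, and 22 of the 26 were above 0, against 52.5% of all probes. For enrichment under DE the median was 0.04, and 19 of the 26 were above 0, against 50.0% of all probes. Arrays of the pools did not overlap in the higher direction for 9 of the 26 for enrichment in clean air, against 20.2% of all probes, and for 10 of the 26 for enrichment under DE, against 21.2%. Of the 10 genes above, 8 were above 0 in clean air and 6 under DE, with Zbtb16 below 0 in both (−0.08 and −0.06). In clean air, all 5 neutrophil markers (0.21 to 0.42) and all 4 red blood cell markers (0.02 to 0.25) were above 0 with enrichment and 7 of 8 mucosal markers were below 0. Under DE, 7 of 8 mucosal and 4 of 5 neutrophil markers were at least 1.5-fold higher with enrichment and all 4 red blood cell markers were higher without overlap, and their part in this list was not tested.

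Hif3a, a hypoxia-inducible factor subunit that glucocorticoids also induce, was the one gene of this list past 1.5-fold. It is on the gene list that the study drew from the same arrays, so its direction is not independent evidence. It read −2.19 and −2.37 in C-C, −2.27 and −1.91 in C-DE, −1.58 and −1.68 in EE-C, and −2.06 and −1.40 in EE-DE. The EE-C arrays lay above all standard-cage arrays, whereas one EE-DE array lay among them and the other above. The difference was 0.65 for enrichment in clean air (0.51 to 0.79), which was 0.56 without the second C-C array and 0.53 with normexp background correction. Map3k6, a stress kinase, read −2.28 and −2.14 in C-C, −2.29 and −2.25 in C-DE, −1.82 and −1.89 in EE-C, and −2.13 and −1.93 in EE-DE. Its enriched arrays lay above its standard-cage arrays, the closest of them by 0.01. The differences were 0.36 for enrichment in clean air (0.25 to 0.46) and 0.24 for enrichment under DE (0.12 to 0.37). Plin4, a lipid droplet protein, differed by −0.20 for DE with enrichment (−0.44 to 0.04), with an overlap of arrays. Il1r1, the interleukin 1 receptor, differed by 0.21 for DE in standard cages (0.06 to 0.36). These values were the farthest from 0 on the list in those comparisons, and both probes were dim.

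**Figure D5:**
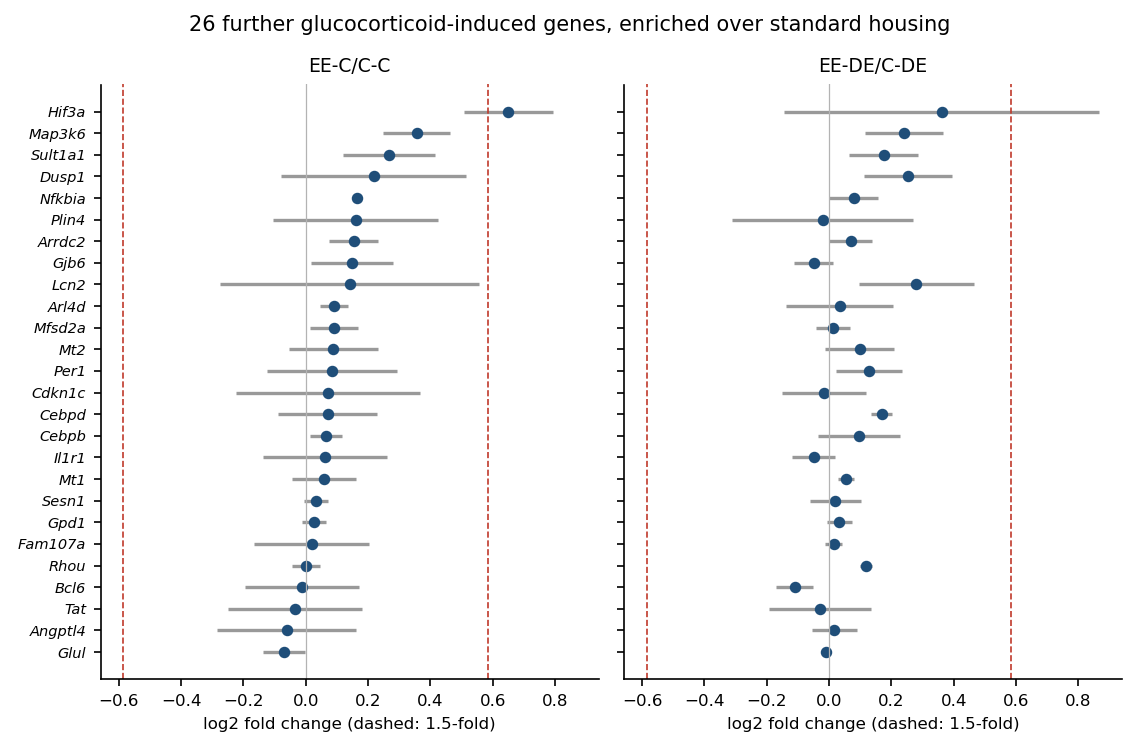
Log2 fold change (x axis) of the 26 further glucocorticoid-induced genes (y axis) in the comparisons of enriched with standard housing, under clean air (left) and under DE (right). Dots are differences of pool means, bars the range over the 4 pairings and dashed lines 1.5-fold. Of the dots, 22 of 26 lie right of 0 on the left and 19 of 26 on the right, and Hif3a alone passes a dashed line.

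Hormone rhythm and clock are linked, and so the clock genes were set beside these values. Dbp, a clock output factor that the study also picked on these arrays, was 0.70 higher for enrichment in clean air (0.64 to 0.76), which was 0.57 with normexp background correction, and 0.52 higher for enrichment under DE (0.44 to 0.61). Of 8 other genes in phase with Dbp, among them Per1, which is also one of the 26 above, 7 were above 0 for enrichment in clean air and 8 for enrichment under DE (52.5% and 50.0% of all probes). Higher without overlap were 4 and 5 of the 8, against 20.2% and 21.2% of all probes. Ciart came closest to Dbp, at 0.53 (0.52 to 0.54) and 0.49 (0.32 to 0.65). The values of Per2 (0.01 and 0.06) and Nr1d1 (0.19 and 0.12) were smaller. Of the 3 genes that peak in antiphase, Arntl was at −0.25 and −0.24, Clock at −0.0066 and −0.02, and Npas2 at 0.18 and −0.13, so they did not share a sign in clean air. For DE in standard cages and for DE with enrichment Dbp differed by 0.01 and −0.16. The study's RT-PCR of individual mice differed from these arrays. There, Dbp was significantly higher for DE in standard cages, and no significant DE effect was found with enrichment. The time of day of collection is not given in the sources used here, and the part of clock time in the housing values of Sgk1, Ddit4 and Hif3a was not tested.

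The p53 targets, given beside Cdkn1a, had 9 measured genes of 10. Btg2, an antiproliferative gene picked by the study on these arrays, was the one past 1.5-fold, at 0.60 for both together. This was 0.45 without the second C-C array, 0.50 without the first EE-DE array and 0.46 with normexp background correction. It read −0.25 and −0.54 in C-C, −0.28 and −0.07 in C-DE, −0.14 and 0.23 in EE-C, and 0.30 and 0.10 in EE-DE. One C-DE array lay above the lower EE-C array, and the EE-DE arrays were above both standard-cage pools. Cdkn1a itself differed by −0.01 for both together, and Gadd45a, a DNA damage response gene, by −0.33 (−0.64 to −0.02). For DE in standard cages Gadd45a was at −0.32 (−0.59 to −0.05), the farthest from 0 on the list. Sesn2, a stress-induced regulator of mTOR signalling, differed by −0.16 for DE with enrichment. The median of the list was 0.05 for DE in standard cages and 0.03 for DE with enrichment.

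For the 3 genes with the widest range of pool means, the probes with the most similar course over the 8 arrays were sought, by the root mean square distance between values centred on each probe's own mean. For Sgk1 these were Pla2g4a (0.04), Khsrp (0.04) and E2f8 (0.04), against a root mean square of Sgk1 around its mean of 0.13. For Ddit4 they were Prrt4 (0.02), Mcf2 (0.02) and Med31 (0.02), against 0.08, and for Fkbp5 Neu2 (0.03), Sts (0.03) and Ap3s2 (0.03), against 0.09. None of these 9 is a gene of the lists. With 21709 probes and 8 arrays, near matches of this kind are a description of these arrays.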

How the data were processed

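Olfactory bulb RNA of 4 groups was measured on 8 one-colour Agilent SurePrint G3 arrays. The authors deposited the intensity of each spot from Agilent Feature Extraction 10.7.3.1, with background subtracted and no scaling between arrays. The deposited series table holds log2 values that the authors scaled to the 75th percentile and centred on each probe's median. Both sources lay within 0.02 (log2) for 99.42% of 21709 probes. Here, log2 processed signal minus the log2 75th percentile of noncontrol spots was computed. Spots needed a GenBank or RefSeq accession, signal well above background on all 8 arrays and no outlier flag, and 23956 of 59305 noncontrol spots passed. Spots of a probe and the log2 values of a pool's arrays were averaged. A gene is represented by its passing probe with the highest mean signal. Replicate numbers name arrays of a pool, so intervals are ranges over the 4 pairings and no p-value is given. Called means at least 1.5-fold (0.585 log2). The number of arrays and the signal over background limit the precision. Probe positions are on mm9, as in the files.

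Ciart is named for its housing values alone. Besides it, the text names all 10 genes, and from each list the genes past 1.5-fold and the 2 with the largest DE difference in each housing. Cell type markers so chosen are given mostly as counts, and 1 other gene is not reported here. The genes and lists were chosen with earlier results of these data known. Alternatives were normexp correction (offset 50), quantile normalization, the median as scale, the series table, linear means, looser filters, the mean of all probes, local deviations subtracted, other thresholds and leaving out each array. Python 3.11.15, pandas 2.3.3, numpy 2.4.6, R 4.3.3 and limma 3.58.1 were used, and the calling was run on simulated data. These had the noise of the C-C arrays alone and planted differences larger than any of the 10 genes. The simulation therefore says nothing of differences as small as theirs.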

Additional observations from a re-analysis of the deposited data

How the results depend on the processing

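The count of 0 genes past 1.5-fold stayed at 0 in all 5 comparisons under all alternatives, those that leave out an array included. The largest gene value was 0.30 with the series table and 0.39 without the second EE-C array, both for Sgk1 in EE-C/C-C. Of 450 gene values under the other alternatives, 26 moved by more than the SD between arrays. With the mean of all passing probes, the median of the 10 genes was 0.012 for EE-DE over C-C, because Nr3c1 is the one gene with more than 1 passing probe. With an array left out, the median ranged from −0.0451 to 0.014 for DE in standard cages and from −0.0954 to −0.0345 with enrichment. For enrichment it ranged from 0.0088 to 0.0975 in clean air and from 0.0045 to 0.0523 under DE, and for both together from −0.0376 to −0.0015. With normexp background correction the median was −0.0171 for DE in standard cages and −0.0547 with enrichment. Under that correction it was 0.0636 for enrichment in clean air, 0.0471 for enrichment under DE and −0.0055 for both together. No paired analysis was possible because each group is 1 pool and the replicate numbers name the arrays it was divided over. For the lists, the scalings and left-out arrays were added after seeing the data. For both together, Cyp2g1 and Cyp2f2 (0.60 and 0.62) were past 1.5-fold, and both were not so without the second C-C array or the second EE-DE array. Dim signal and 2 arrays for each pool limit how small a difference could be read.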
